A study of Mus with 9 samples.

Results

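The genes described here encode the nuclear subunits of respiratory complexes III and IV and of mitochondrial ATP synthase, together with cytochrome c. They were chosen by symbol: every probe set whose gene symbol starts with Uqcr, with Cox followed by a digit from 4 to 8, or with Atp5, and the symbol Cycs. The choice gave 45 probe sets of 44 gene symbols, out of 22206 probe sets on the array. Of these, 8 belong to complex III, 18 to complex IV and 18 (17 symbols, as Atp5d has 2 probe sets) to ATP synthase, and 1 is cytochrome c.

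Hippocampal RNA was hybridized to Clariom S Mouse arrays, on which a probe set is a group of short probes read as 1 value per gene. The 9 arrays came from 9 male mice, 3 in each of 3 groups. The SAMR1 group (senescence-accelerated mouse resistant 1, the control strain) received vehicle, and so did the SAMP8 group (senescence-accelerated mouse prone 8, a strain with early memory decline). The TG-treated SAMP8 group received trigonelline (TG), an alkaloid of coffee and fenugreek, orally over 30 days at a daily dose of 5 mg/kg. Mice of 16 weeks, housed singly, entered the study. Acclimatization, dosing and testing followed, so the tissue came from older mice. All groups went through 8 days of Morris water maze testing, and dosing went on through it. The vehicle is water in the methods and saline in the sample records. SAMP8 and SAMR1 are separate inbred strains, so their difference is one of strain as well as of ageing, and TG was given to SAMP8 mice alone.

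The deposited tables hold 1 log2 signal per probe set and group, the authors' average of 3 arrays, and no value per array. Every level below is such an average and every difference is one average minus another, so none carries an SD and none was tested. A member is counted as higher or lower where the averages differ by more than 1.5-fold (0.585 on the log2 scale), and the share of all probe sets past the same limit is given once for each comparison. The 3 comparisons share groups and are not independent of each other. Differences are taken between groups for the same probe set. Probes differ in brightness, so a probe set is called bright or dim only by its signal on the array, and no abundance is compared between genes. The group medians over all probe sets were 6.09 (SAMR1), 6.04 (SAMP8) and 6.07 (TG-treated SAMP8). Neuronal markers were bright, as in Snap25, a protein of synaptic vesicle release, at 17.92, 18.23 and 18.06 in the same order, and in Neurod6, a transcription factor of hippocampal pyramidal cells, at 14.86, 14.85 and 14.88.

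Complex III takes electrons from ubiquinol and hands them to cytochrome c, a small soluble carrier between the mitochondrial membranes. Complex IV, cytochrome c oxidase, passes them on to oxygen. Both pump protons across the inner membrane, and ATP synthase lets the protons back through a rotor whose turning drives the making of ATP. The catalytic core of complex IV and the cytochrome b of complex III come from the mitochondrial genome, while the subunits described here are encoded in the nucleus. Neurons draw most of their ATP from this pathway.

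In TG-treated SAMP8 mice, 19 of the 45 probe sets had a higher average than in SAMP8 by more than 1.5-fold, and 1 had a lower average. Over all probe sets, 4.48% were higher and 3.74% lower past this limit. The median difference of the members was 0.50, against 0.01 over all probe sets, and 38 of the 45 had a difference above 0. The medians were 0.49 in complex III, 0.52 in complex IV and 0.50 in ATP synthase. Without the tissue-restricted forms described below, that of complex IV was 0.67. When differences were centred within classes of signal and gene span (an alternative chosen after the data were seen), the 3 medians were 0.40, 0.32 and 0.42, and 14 of the 38 members above 0 were smaller by more than 1.5 times, 3 of them at or below 0.

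**Figure D1:**
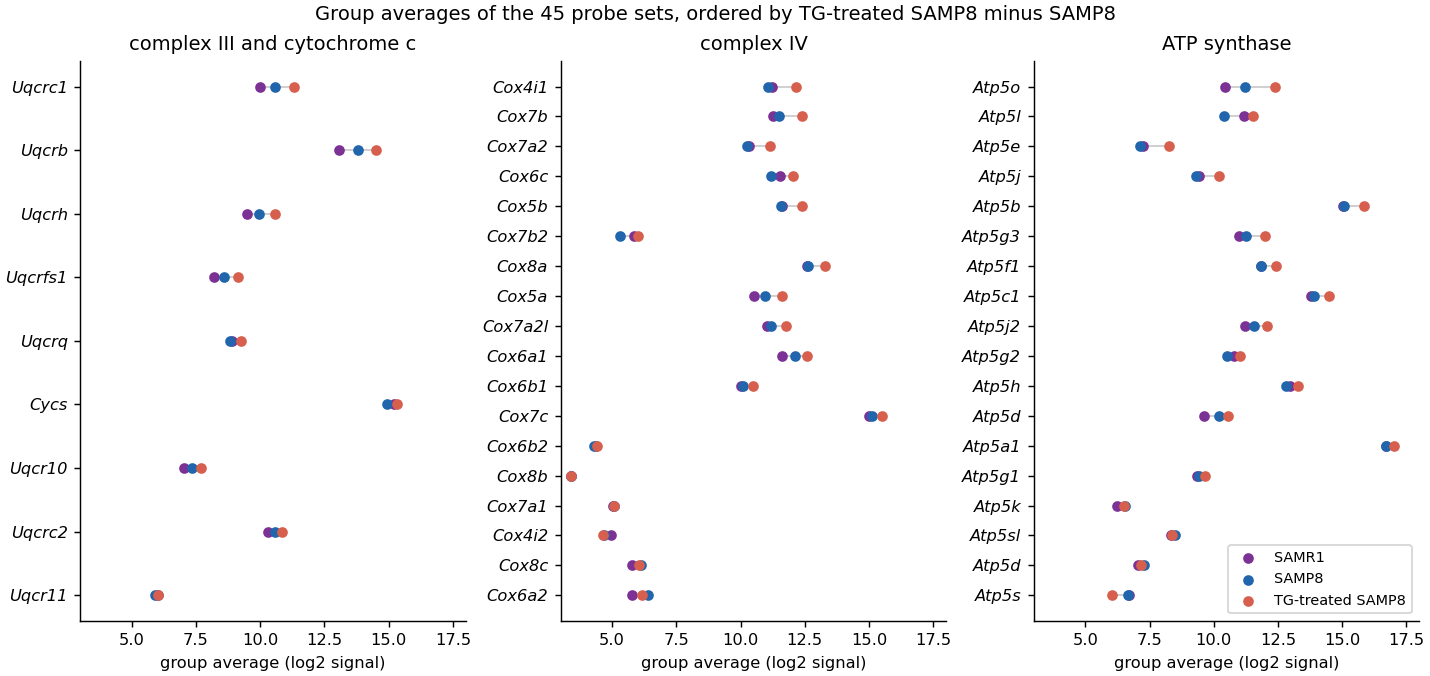
Authors' group averages (log2 signal, horizontal axis) of the 45 probe sets in SAMR1 (purple), SAMP8 (blue) and TG-treated SAMP8 (red), in panels for complex III with cytochrome c, complex IV and ATP synthase. Each line of points is 1 probe set, ordered by TG-treated SAMP8 minus SAMP8, and Atp5d has 2 probe sets. In Atp5o, at the top of the ATP synthase panel, the averages are 10.42, 11.20 and 12.37, and in Cox8b (3.40, 3.40 and 3.41) the points coincide.

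All 8 probe sets of complex III had a higher average with TG, and 3 passed 1.5-fold. Uqcrc1, a core protein of the matrix side of the complex, had an average of 10 in SAMR1, against 10.57 in SAMP8 and 11.32 with TG. The TG group was thus above SAMP8 by 0.75, or 1.68-fold, and above SAMR1 by 1.32. Uqcrb, a small subunit that binds next to the ubiquinone site, went from 13.08 in SAMR1 to 13.81 in SAMP8 and 14.52 with TG, which is 1.64-fold above SAMP8. Uqcrh, the acidic hinge protein at the docking site of cytochrome c, stood at 9.49, 9.95 and 10.59. In each of these 3 genes SAMR1 was lowest and the TG group highest. Uqcrfs1, the Rieske iron-sulfur protein that carries the electron towards cytochrome c1, kept the same order at 8.21, 8.59 and 9.15, with a TG difference of 0.56, just inside the limit.

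The other complex III members differed less with TG. Uqcrc2, the partner of Uqcrc1 in the core, had averages of 10.31, 10.58 and 10.83, a TG difference of 0.25. The small subunits Uqcrq and Uqcr10 differed by 0.42 and 0.34. Uqcr11, another small subunit, was dim at 6.03, 5.91 and 6.01 and differed by 0.10. Cytochrome c (Cycs, the somatic form) was bright in every group at 15.19, 14.94 and 15.31. It was 0.37 higher with TG than in SAMP8 and 0.12 higher than in SAMR1, and the TG difference was 0.05 after the centring by signal and span. The other subunit of complex III on the array with a nuclear gene, Cyc1 (cytochrome c1), was not chosen by the symbol rule. Its averages were 5.88, 6.33 and 6.65.

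In complex IV, 8 of 18 probe sets were higher with TG and none was lower past 1.5-fold. Cox4i1, the common form of subunit 4, which has a part in the control of the enzyme by ATP, had averages of 11.24 in SAMR1, 11.06 in SAMP8 and 12.16 with TG. The TG group was 1.1 above SAMP8 (2.14-fold) and 0.92 above SAMR1, while the SAMP8 average was 0.18 below that of SAMR1. Cox7b (11.26, 11.49 and 12.40) and Cox7a2 (10.33, 10.23 and 11.14), small membrane-spanning subunits, each differed by 0.91 with TG. Cox6c, a small subunit of the same kind, was lower in SAMP8 than in SAMR1 by 0.33 (11.52 and 11.19) and stood at 12.05 with TG, a difference of 0.86. In these 4 genes the TG average was the highest of the 3, and the order of the vehicle groups varied.

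More of the broadly expressed subunits passed 1.5-fold. The matrix-facing subunits Cox5b and Cox5a had TG differences of 0.82 (11.60, 11.56 and 12.38) and 0.67 (10.53, 10.96 and 11.63), and Cox8a, a single-helix subunit, one of 0.67 (12.60, 12.63 and 13.30). Cox6a1, Cox6b1 and Cox7c were inside the limit, with differences of 0.47, 0.38 and 0.36. After the centring by signal and span, those of Cox6a1 and Cox7c were 0.15 and 0.04. Cox7a2l, a relative of Cox7a2 that helps to join complexes III and IV into supercomplexes and is not a subunit of the lone enzyme, had averages of 11.03, 11.20 and 11.78, and its difference of 0.58 fell just short of 1.5-fold.

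Several complex IV subunits come in tissue forms from separate genes. Cox6a2, Cox7a1 and Cox8b are the heart and muscle forms, Cox6b2, Cox7b2 and Cox8c are known from testis, and Cox4i2 from lung. The broadly expressed partners of these forms, Cox4i1, Cox6a1, Cox6b1, Cox7a2, Cox7b and Cox8a, had a median TG difference of 0.79, with a range from 0.38 to 1.1, and 4 of the 6 passed 1.5-fold. The 7 tissue-restricted forms had a median of 0.01, with a range from -0.21 to 0.71.

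Among the muscle forms, Cox8b had averages of 3.40, 3.40 and 3.41 in SAMR1, SAMP8 and the TG group, and Cox7a1 stood at 5.03, 5.06 and 5.07. Both differed by 0.01 with TG, while Cox8a and Cox7a2 differed by 0.67 and 0.91. Cox6a2 was the exception between strains, at 5.78 in SAMR1 and 6.38 in SAMP8 (1.52-fold), and stood at 6.17 with TG, while Cox6a1 had averages of 11.63, 12.12 and 12.59. Cox4i2, at 4.97, 4.67 and 4.65, differed by -0.02 with TG. Of the testis forms, Cox6b2 (4.37, 4.28 and 4.39) and Cox8c (5.76, 6.14 and 6.03) differed by 0.11 and -0.11. Cox7b2 was the 1 restricted form past the limit: it stood at 5.83, 5.29 and 6.00, so that the TG group was 0.71 above SAMP8 and 0.17 above SAMR1. The restricted forms were all dimmer than the broad ones, with averages between 3.40 and 6.38, and the broad forms all above 10. Of the restricted forms, only Cox6b2 and Cox8b lay in the dimmest 25% of all probe sets. The part of signal level in the contrast between the forms was not tested.

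**Figure D2:**
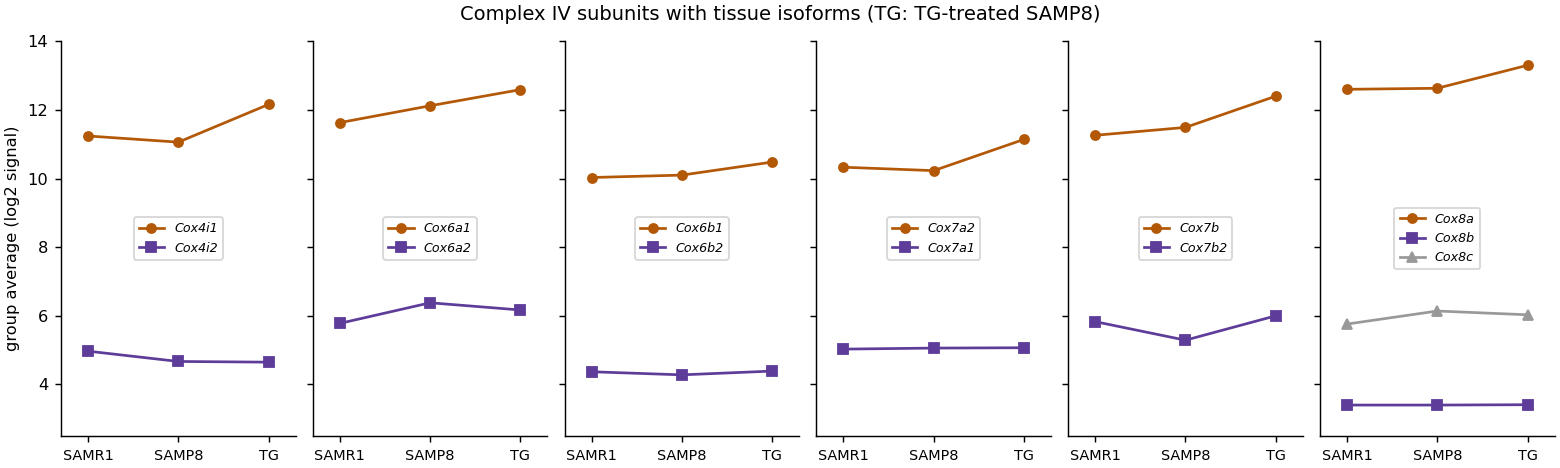
Authors' group averages (log2 signal) in SAMR1, SAMP8 and TG-treated SAMP8 (TG) for the complex IV subunits with more than 1 gene form, 1 panel per subunit, with the broadly expressed form as circles and the tissue-restricted forms as squares or triangles. The broad forms end higher with TG, by 0.38 (Cox6b1) to 1.1 (Cox4i1), and of the restricted forms Cox7b2 differs by 0.71 and the others by -0.21 to 0.11. Levels of different genes cannot be compared, since their probes differ.

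In ATP synthase, 8 of 18 probe sets were higher with TG and 1 was lower. All 8 were among the 16 probe sets of true subunits, whose median difference was 0.55. In the F1 head, where ATP is made, Atp5b (the catalytic beta subunit) had averages of 15.03 in SAMR1, 15.08 in SAMP8 and 15.85 with TG, which is 1.71-fold above SAMP8. Atp5a1, the alpha subunit beside it, stood at 16.71, 16.72 and 17.03 and differed by 0.31. Atp5c1, the gamma subunit that forms the rotor shaft, had averages of 13.80, 13.89 and 14.48, a difference of 0.59 (1.51-fold). In all 3 genes the vehicle groups lay within 0.09 of each other.

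The small subunits at the foot of the shaft gave a less even picture. Atp5e (epsilon) was at 7.24 in SAMR1, 7.11 in SAMP8 and 8.25 with TG, a difference of 1.14 or 2.20-fold. The 2 probe sets of Atp5d (delta) did not go the same way. The brighter one had averages of 9.64, 10.20 and 10.55, a TG difference of 0.35, and the dimmer one 7.05, 7.29 and 7.16, a difference of -0.13.

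In the peripheral stalk, which holds the F1 head still against the turning rotor, all 4 members had higher averages with TG and 3 passed 1.5-fold. Atp5o, the subunit named for the oligomycin sensitivity it confers, had the largest TG difference of the 45 probe sets. Its averages were 10.42 in SAMR1, 11.20 in SAMP8 and 12.37 with TG, so that each step was past the limit: 1.72-fold between the strains, 2.25-fold with TG, and 3.86-fold between the TG group and SAMR1. The gene lies at chr16:91925223-91931630 in RefSeq's annotation of GRCm38, the mm10 build that the tables name. Atp5j (coupling factor 6) stood at 9.44, 9.31 and 10.21, a TG difference of 0.90, and Atp5f1 (subunit b) at 11.85, 11.85 and 12.44, a difference of 0.59. Atp5h (subunit d) had 12.95, 12.80 and 13.28, a difference of 0.48, or 0.16 after the centring by signal and span.

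The c subunit, of which the ring of the rotor is built, is made from 3 genes that encode the same mature protein behind different import signals. Atp5g3 had averages of 10.98, 11.26 and 12.00, a TG difference of 0.74. Atp5g2 stood at 10.80, 10.52 and 11.02, a difference of 0.50, and Atp5g1 at 9.36, 9.43 and 9.66, a difference of 0.23, or -0.01 after that centring. All 3 were highest with TG, and Atp5g3 alone passed 1.5-fold against SAMP8. Of the membrane subunits that take part in joining the enzyme into dimers, Atp5l (subunit g) had averages of 11.17 in SAMR1, 10.38 in SAMP8 and 11.52 with TG. It was 1.14 higher with TG than in SAMP8, and the TG average was 0.35 above SAMR1. Atp5j2 (subunit f) stood at 11.22, 11.55 and 12.06, and Atp5k (subunit e) at 6.23, 6.55 and 6.49, with TG differences of 0.51 and -0.06.

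The single member with a lower average past the limit was Atp5s, at 6.70 in SAMR1, 6.66 in SAMP8 and 6.05 with TG, a difference of -0.61. Despite its symbol Atp5s, now called Dmac2l, is not a structural subunit of the enzyme. Its relative Atp5sl, now called Dmac2 and known as an assembly protein of complex I, had averages of 8.32, 8.50 and 8.37. Without these genes, Cox7a2l and the tissue-restricted forms, 35 probe sets remained, of which 18 were higher with TG past 1.5-fold and none lower, with a median of 0.59.

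**Figure D3:**
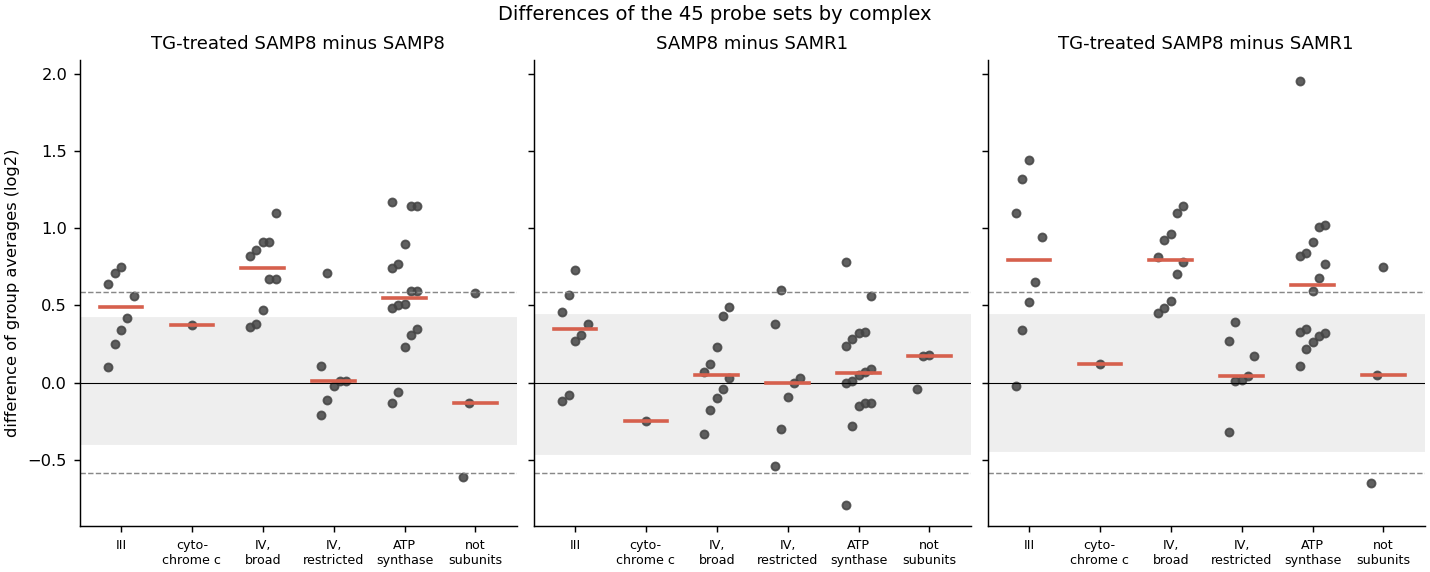
Differences of the authors' group averages (log2, vertical axis) for the 45 probe sets in the 3 comparisons, 1 point per probe set, by complex (III and IV for complexes III and IV). Red bars are medians, dashed lines the 1.5-fold limit, and the grey band spans the 10th to the 90th percentile of all probe sets; the broad group of complex IV leaves out the tissue-restricted forms, and the last group holds Cox7a2l, Atp5s and Atp5sl. With TG the medians are 0.49 in complex III and 0.55 in ATP synthase, and 0.01 in the tissue-restricted forms. Between the vehicle groups the median of complex III is 0.34.

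Between SAMP8 and SAMR1, both given vehicle, the members as a whole differed little. Of the 45 probe sets, 3 were higher in SAMP8 past 1.5-fold and 1 was lower, where 5% of all probe sets were higher and 6.08% lower. The median of the members was 0.07, against 0.00 over all. The 3 were Atp5o (0.78), Uqcrb (0.73) and Cox6a2 (0.60), and the lower one was Atp5l, with an average 0.79 below that of SAMR1. The Atp5l gene lies at chr9:44913248-44920742 and Uqcrb at chr13:66900576-66905350 (GRCm38).

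By complex, the median between the strains was 0.34 in complex III, 0.03 in complex IV and 0.06 in ATP synthase. After the centring by signal and span, these medians were 0.24, 0.02 and -0.05. In complex III, 6 of the 8 probe sets had higher averages in SAMP8: Uqcrb, Uqcrc1 (0.57), Uqcrh (0.46), Uqcrfs1 (0.38), Uqcr10 (0.31) and Uqcrc2 (0.27). Uqcrq and Uqcr11 differed by -0.08 and -0.12. Complex IV ran from -0.54 (Cox7b2) to 0.60 (Cox6a2), with Cox6a1 at 0.49 and Cox5a at 0.43 towards the upper end and Cox6c at -0.33 towards the lower. In ATP synthase the catalytic subunits Atp5a1 and Atp5b differed by 0.01 and 0.05, and the differences ran from -0.79 (Atp5l) to 0.78 (Atp5o). Cycs was 0.25 lower in SAMP8.

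TG-treated SAMP8 mice against SAMR1 mice had 22 members higher past 1.5-fold and 1 lower, again Atp5s (-0.65). Over all probe sets 5.62% were higher and 4.83% lower. The median of the members was 0.53, against -0.01 over all, and 42 of the 45 had a difference above 0. By complex the median was 0.80 in complex III, 0.50 in complex IV and 0.47 in ATP synthase, and 5 of 8, 8 of 18 and 9 of 18 probe sets were higher. After the centring by signal and span, these medians were 0.63, 0.31 and 0.36. Bright genes outside the members, described below by span, were also above SAMR1 where they were short, with a median of 0.33 and 29.0% higher up to 5 kb, and 0.20 and 20% from 5 to 10 kb, against 0.59 and 50.0%, and 0.82 and 61.5%, for members of those spans. After Atp5o (1.95), the widest differences were in Uqcrb (1.44, 2.71-fold), Uqcrc1 (1.32), Cox7b (1.14), Uqcrh (1.1) and Cox5a (1.1). Of the 35 probe sets left without the tissue-restricted forms and the genes that are not subunits, 34 had a higher average with TG than in SAMR1, the exception being Uqcr11 at -0.02.

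The members were bright on the whole. Of the 45, 30 fell in the brightest 25% of all probe sets by mean signal (above 8.73 on the log2 scale), and 2 in the dimmest 25%. Among the brightest the median TG difference was 0.62 for the members and -0.06 for all probe sets, and the median SAMP8 minus SAMR1 difference was 0.07 for the members and 0.12 for all. The member genes are spread over 19 chromosomes. On chromosome 7, which holds 7 of them, lie the broad Cox6b1, the restricted Cox6a2, Cox6b2, Cox7a1 and Cox8b, Uqcrc2 and Atp5sl.

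Member genes are also short. The span from first to last base in RefSeq's annotation of GRCm38 ran from 0.932 kb (Cox6a2) to 105 kb (Cox7b2), with a median of 6.27 kb, against 17.2 kb over all placed probe sets. Among bright probe sets, short genes outside the members had higher averages with TG as well. Among the brightest 25%, non-member genes up to 5 kb had a median TG difference of 0.25, and 19.4% of the 449 were higher past 1.5-fold. The 10 members of that span had a median of 0.48, and 40.0% were higher. From 5 to 10 kb the median was 0.77 for 13 members, with 61.5% higher, and 0.06 for 476 other probe sets, with 8.4% higher. From 10 to 25 kb it was 0.59 for 7 members and 0.00 for 1257 others, of which 3.58% were higher. For the 1117 bright genes longer than 100 kb it was -0.17. The members lay above the others in each of these 3 ranges, by less in the shortest, and the part of span in the differences was not tested.

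**Figure D4:**
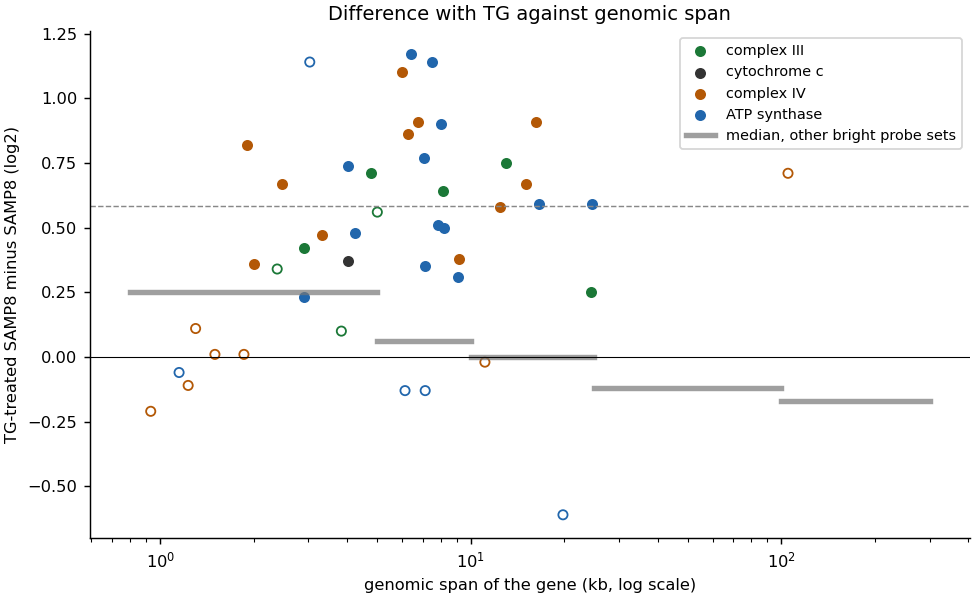
TG-treated SAMP8 minus SAMP8 (log2, vertical axis) of the 45 probe sets against the genomic span of the gene (kb, log scale), coloured by complex, with filled points for the brightest 25% of probe sets by signal and open points for dimmer probe sets. Grey bars are the median of the other probe sets of that brightness within each range of span, falling from 0.25 up to 5 kb to -0.17 beyond 100 kb, where the last bar is drawn only in part. The dashed line is the 1.5-fold limit, and all filled points lie above 0.

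The rest of the pathway was read from lists of its genes. For complex I, the entry point of electrons from NADH, 10 of 37 probe sets were higher with TG past 1.5-fold and none was lower, with a median of 0.42, and the widest difference was in Ndufs7, an iron-sulfur subunit (6.70, 7.17 and 8.41 in SAMR1, SAMP8 and TG-treated SAMP8). Complex II has no mitochondrially encoded subunit and also works in the citric acid cycle. Its list joined the subunits with the assembly factors Sdhaf1 to Sdhaf4, while that of complex I held subunits only. None of the 8 probe sets for complex II passed the limit either way with TG, and the median was 0.08. Sdha and Sdhb, the catalytic subunits, differed by -0.03 and 0.04 with TG, and were 0.38 and 0.56 higher in SAMP8 than in SAMR1. The other subunits, Sdhc and Sdhd, differed by 0.24 and 0.34 with TG, and were 0.18 and 0.42 higher in SAMP8 than in SAMR1. The list median of complex II between the strains was 0.33. None of 14 probe sets of citric acid cycle enzymes passed the limit with TG (median 0.07).

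The lists of other subunits and assembly factors had medians nearer 0 for complexes III and IV. For complex III, none of 7 probe sets of the other subunit and assembly factors passed 1.5-fold with TG, with a median of 0.09. For complex IV, 2 of 24 were higher and 1 lower, with a median of 0.11. The higher ones were Higd2a, of supercomplex assembly (8.02, 8.10 and 9.20), and Coa3 (4.85, 5.07 and 5.68), and the lower one Cox15, which makes the heme of the enzyme (7.28, 7.70 and 7.08). Ndufa4, first assigned to complex I and since placed in complex IV, had averages of 11.29, 11.94 and 12.51, a TG difference of 0.57. For ATP synthase, 1 of 6 was higher, with a median of 0.44. This was 2010107E04Rik, the small 6.8 kDa proteolipid of the enzyme, at 10.32, 10.62 and 11.29, and Atpif1, the inhibitor that stops the enzyme from running backwards, had 11.27, 11.26 and 11.81. Usmg5, another small membrane subunit outside the symbol rule, differed by 0.57.

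For 12 probe sets of regulators of mitochondrial biogenesis, none passed the limit with TG and the median was -0.08. Ppargc1a, the coactivator PGC-1alpha, stood at 12.96, 12.91 and 12.63, and Nrf1 and Tfam, the factors downstream of it, differed by -0.12 and -0.04. The mitochondrial genes listed as COX1 and COX2, core subunits of complex IV, could not be followed. COX1 had an average of 19.93 in all 3 groups, the highest value on the array, and COX2 lay between 19.84 and 19.92. Outside the mitochondrion, cytosolic ribosomal protein genes, with a median span of 3.15 kb and 67 of 88 probe sets among the brightest 25%, had 44 higher with TG and none lower, with a median of 0.58.

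**Figure D5:**
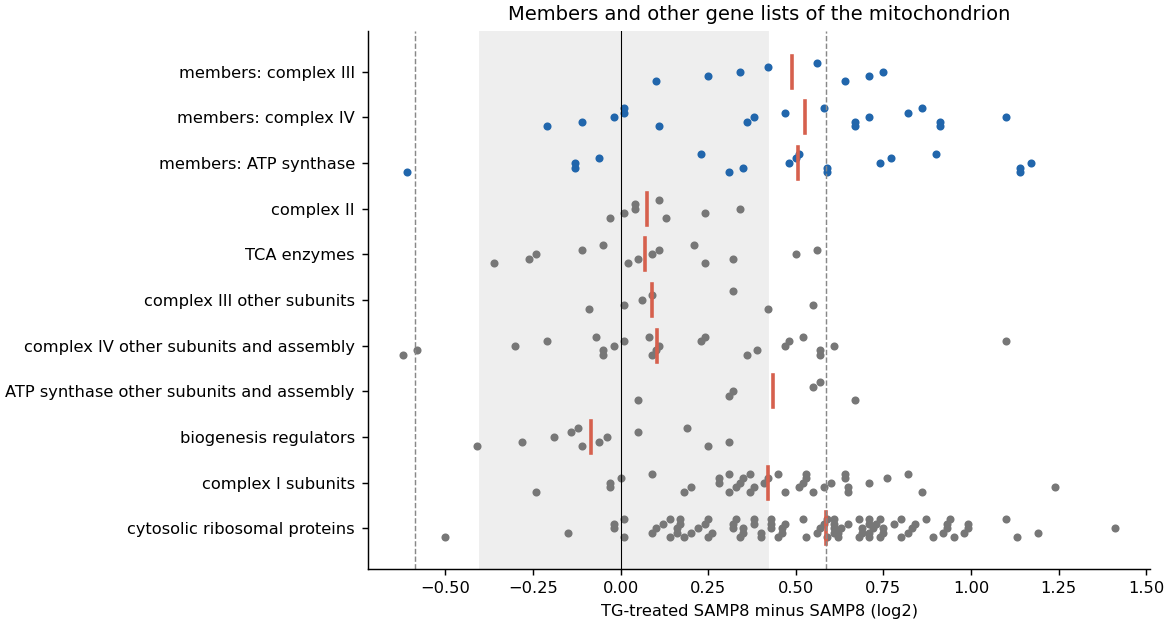
TG-treated SAMP8 minus SAMP8 (log2, horizontal axis) for the members by complex (blue) and for other gene lists (grey), 1 point per probe set. Red bars are medians, dashed lines the 1.5-fold limit, and the grey band spans the 10th to the 90th percentile of all probe sets (-0.40 to 0.42). The medians are 0.49 to 0.52 in the 3 complexes, 0.42 in complex I and 0.08 in complex II, whose list also holds assembly factors. They are -0.08 in the biogenesis regulators and 0.58 in the cytosolic ribosomal proteins.

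In whole tissue, more cells of a type and more RNA per cell cannot be told apart, so the markers of the cell types in and around the hippocampus are given beside these values. With TG the median difference was 0.12 for 8 neuronal markers, -0.17 for 7 markers of hippocampal principal neurons, -0.03 for 7 of astrocytes and -0.17 for 6 of microglia. Past 1.5-fold among the markers of these 4 types was Prox1 alone, of dentate granule cells, with a difference of -0.85. For oligodendrocytes the median was 0.36, and 2 of 7 markers were higher, Cldn11 and Mag, both by 0.71. The summed linear level of that list was 18.89, 18.74 and 18.95 on the log2 scale. For meninges it was 11.18, 10.93 and 10.30, a sum in which bright probe sets weigh most. Of the 8 markers 3 were above 0 with TG and 4 were lower past the limit, with a median of -0.40. Fmod was lower by the most (4.66, 6.09 and 4.21). For smooth muscle the summed level was 7.34, 8.39 and 7.18, with 1 of 5 higher and 2 lower. Acta2 went from 5.52 to 7.71 and 5.54. The median TG difference of the smooth muscle markers was -0.31, with 2 of the 5 above 0. For endothelium the summed level was 11.61, 12.14 and 11.51, with 1 of 5 lower past the limit. The endothelial median with TG was -0.22, with 4 of the 5 below 0. For choroid plexus the summed level was 9.16, 9.82 and 10.30. With TG, 1 of 6 was higher (Ttr, by 0.72) and 1 lower (Kl, by -0.79), with a median of -0.11. Between SAMP8 and SAMR1, markers of these cells also differed past 1.5-fold: Aif1 (1.51) and P2ry12 (0.86) of microglia, Gfap (0.95) and Slc1a3 (0.62) of astrocytes, and Spink8 (1.30) and Prox1 (0.59) of principal neurons were higher in SAMP8, with list medians of 0.00, 0.12 and 0.31. Of the neuronal list, Stmn2 was higher (0.64) and Map2 lower (-0.66), with a list median of 0.21. By the same limit 1 of 5 endothelial markers was higher in SAMP8, with all 5 above 0 and a median of 0.52. For oligodendrocytes 1 of 7 was lower (median -0.21), and for choroid plexus 2 of 6 were higher (median 0.12). For meninges 2 of 8 were higher and 2 lower (median -0.02), and for smooth muscle 1 of 5 was higher and 1 lower (median 0.00). Against SAMR1, the TG group was 1.07, 0.84 and 1.13 higher in Aif1, Gfap and Spink8. An array signal has no 0, so no marker can be called absent. The part of these shifts in the values of the members was not tested.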

How the data were processed

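Hippocampal RNA of 9 mice (3 per group, by the sample records) was hybridized to Clariom S Mouse arrays. The authors summarized the intensities by SST-RMA (RMA after signal space transformation) in Transcriptome Analysis Console and deposited 2 tables of 22206 probe sets, with the authors' group averages as log2 signal to 0.01. This sets every array to the same distribution, so differences are relative to the other genes. The tables also hold the authors' linear fold changes, p-values and adjusted p-values, which were not used. Both tables give the same SAMP8 averages. A text attached to the records describes a macrophage line and was not used, and the series text speaks of duplicate samples.

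Averages were subtracted, and probe sets past 1.5-fold were counted, over all 22206 and over the members. The members, lists and alternatives were chosen with earlier results of these data known. Named with values were the 4 highest and 4 lowest TG differences of each complex (cytochrome c with complex III), members past 1.5-fold between strains, tissue isoforms, Atp5g1 to Atp5g3, core subunits and Cycs; the remaining members were added to account for all. Genomic spans came from RefSeq GRCm38.p6, in which 97.2% of probe sets were placed. One marker gene is not reported by name here. The counting was tested on simulated data. Python 3.11.15, numpy 2.4.6, pandas 2.3.3 and matplotlib 3.10.9 were used.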

Additional observations from a re-analysis of the deposited data

How the results depend on the processing

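No paired analysis was possible because the tables hold 1 average per group, and for the same reason no array could be left out and no test was run. The authors' p-values in the tables were not used, so no precision is given here. Under other fold limits, the count of members past the limit with TG against SAMP8 (20 at 1.5-fold) was 36 at 1.1-fold, 32 at a limit between 1.1 and 1.5, and 4 at 2-fold, where the share of all probe sets past these limits either way was 63.4%, 29.3% and 0.761% (8.21% at 1.5-fold) and that of the members 80.0%, 71.1% and 8.89%. Between SAMP8 and SAMR1 (4) it was 27, 14 and 0 at these limits (60.0%, 31.1% and 0.0% of the members, against 65.5%, 32.5% and 2.22% of all), and between TG-treated SAMP8 and SAMR1 (23) it was 38, 31 and 8 (84.4%, 68.9% and 17.8%, against 64.9%, 32.1% and 1.81%). Centring the differences within classes of both signal and genomic span, an alternative chosen after the data were seen, took the TG median from 0.50 to 0.35 and the count to 15, and against SAMR1 the median from 0.53 to 0.40 and the count from 23 to 15. Atp5g3, Cox5b, Cox8a, Uqcrb and Uqcrh then fell inside 1.5-fold with TG against SAMP8. Against SAMR1, Atp5b, Atp5c1, Atp5f1, Cox4i1, Cox5b, Cox6a1, Cox8a and Uqcr10 did so. Without the tissue-restricted isoforms the median against SAMR1 was 0.69. The other alternatives kept the TG count between 18 and 23 and its median between 0.47 and 0.58, and the strain count between 3 and 6. They were median centring, quantile normalization of the averages, signal classes and 1 value per gene. Others left out the dimmest 25% of probe sets, the genes that are not subunits, Cox7b2 or the tissue-restricted isoforms. Members near the limit moved with the scaling: Atp5c1 and Atp5f1 fell inside it under median centring, and Atp5g2, Cox7a2l and Uqcrfs1 passed it under quantile normalization. No member past the limit changed its direction under these alternatives.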

Other observations

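The lists in this section were chosen after values of the data had been seen. For the making of coenzyme Q, the lipid carrier that feeds complex III, none of 11 probe sets passed 1.5-fold with TG, and the median was 0.00. Coq7 had the widest difference, at 6.87 in SAMR1, 6.54 in SAMP8 and 7.07 with TG. For enzymes that hand electrons to coenzyme Q by routes other than complexes I and II, 1 of 5 was lower and none higher, with a median of 0.04. This was Etfdh, through which electrons of fatty acid oxidation enter, at 9.49, 9.86 and 9.22. Its partners Etfa and Etfb differed by 0.14 and 0.05.

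For the carriers and kinases that move ATP, ADP and phosphate out of and into the mitochondrion, none of 8 passed 1.5-fold with TG, while the median was 0.34. The phosphate carrier Slc25a3 stood at 14.21, 14.18 and 14.67. The ADP/ATP carriers Slc25a4 and Slc25a5 stood at 13.98, 14.54 and 14.98, and at 13.14, 13.15 and 13.54. Mitochondrial creatine kinase (Ckmt1) was 1.03 higher in SAMP8 than in SAMR1, and cytosolic brain creatine kinase (Ckb) 0.73, with TG differences of 0.25 and -0.10. For 6 genes that shape the cristae, the folds of the inner membrane in which ATP synthase dimers sit, none passed the limit with TG, and the median was 0.04. Opa1 had averages of 12.73, 12.75 and 12.72.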
